A study of Mus musculus with 12 samples.

Results

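The genes described here are 37 mouse genes of the B cell lineage, measured in preparations of splenic CD4+ T cells. They were chosen by symbol, through the gene identifier that names each row of the deposited value table. Of the 37 genes, 35 had a named row among the 23185 genes tested, and Lyn and Scd5 were not analysed here. All 12 arrays gave a value for each of the 35 genes, and no filter on low values was applied.

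Each of the 12 arrays held total RNA from 1 of 4 groups, with 3 arrays per group. Cre+ cells were labelled Lck-Cre+;Ikzf-/- and Cre- cells Lck-Cre-;Ikzf+/+, and both genotypes were measured after activation and at baseline. Activated cells had been stimulated for 24 hours with anti-CD3 fixed to the plate and anti-CD28 in solution, and baseline cells are labelled 0 hours. The Lck promoter drives Cre in the T lineage, and Ikaros is a zinc finger transcription factor encoded by Ikzf1. No group carried Cre with intact Ikaros, and no group was kept in culture without the antibodies, so culture and activation cannot be told apart. The labels give no age of the mice and do not say whether replicate arrays stand for separate mice. A p-value therefore measures the spread between these samples, which may be technical.

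A mature B cell carries an antigen receptor built from membrane immunoglobulin and the signalling chains CD79A and CD79B. Receptor engagement runs through the kinases LYN, BLK, SYK and BTK and the adaptor BLNK to phospholipase C gamma 2, and the factors EBF1 and PAX5 keep the lineage's gene programme. B cells also present antigen on major histocompatibility complex (MHC) class II molecules, whose genes need the coactivator CIITA. Mouse T cells make little class II, while dendritic cells and macrophages make it too, and Syk, Btk, Plcg2, Spib, Bcl11a and Cd180 are also known from myeloid or plasmacytoid dendritic cells.

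Class II promoters share a run of elements that ends in a Y box, the site of the factor NF-Y, and the octamer is the site of the Oct factors, including Oct-2 from Pou2f2. Promoter sequence from RefSeq (GRCm38.p6) was at hand for 28 of the 35 genes, and the 250 bases before each annotated start were searched on both strands. The Y box core GATTGG was present in all 5 class II genes with a promoter, in 7 of the 28 genes in all (also Fcer2a and Fcrla), and in 14.6% of 32851 mouse promoters. The octamer ATGCAAAT was found in Vpreb3 and Blnk and in 1.6% of all promoters; the 2 motifs do not overlap each other. The windows are shown because 6 of the 7 class II genes moved together with activation and H2-DMa did not. Capitals mark the match, each sequence runs 5′ to 3′ toward the gene, and in Vpreb3 and Blnk the octamer lies on the opposite strand, so that its reverse complement is printed.
H2-Aa, chr17:34287853-34287917, minus strand, match from 49 bases upstream of the start: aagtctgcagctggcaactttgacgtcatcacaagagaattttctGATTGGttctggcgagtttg
H2-Eb1, chr17:34305762-34305826, plus strand, from 60 bases upstream: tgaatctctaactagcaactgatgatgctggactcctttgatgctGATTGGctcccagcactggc
H2-DMb2, chr17:34145113-34145177, plus strand, from 91 bases upstream: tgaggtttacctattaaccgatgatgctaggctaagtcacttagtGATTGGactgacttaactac
H2-Ob, chr17:34238802-34238866, plus strand, from 58 bases upstream: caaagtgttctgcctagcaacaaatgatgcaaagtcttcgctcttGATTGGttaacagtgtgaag
H2-DMa, chr17:34125274-34125338, plus strand, from 199 bases upstream: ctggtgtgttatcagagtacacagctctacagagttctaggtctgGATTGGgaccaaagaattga
Vpreb3, chr10:75948210-75948276, plus strand, from 45 bases upstream: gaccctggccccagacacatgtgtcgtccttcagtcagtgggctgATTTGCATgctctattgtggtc
Blnk, chr19:40994330-40994396, minus strand, from 130 bases upstream: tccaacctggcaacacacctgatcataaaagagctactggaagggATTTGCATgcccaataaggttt
Of the 5 class II genes shown, 4 fell with activation in both genotypes and H2-DMa passed in neither, as given below. Whether the place of a match bears on this was not tested. Any further match in the same promoter would not be listed here, so a printed match need not be the nearest to the start. Whether the letters in H2-DMa are the Y box of the class II run was not tested. A match is a description of these letters only.

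Values are log2 expression from RMA, so a difference of 1 is a 2-fold change. One limma fit of the 12 arrays covered all 23185 genes, and a gene was called, or passed, where its two-sided p, adjusted by Benjamini-Hochberg over that whole table, was under 0.05. Standard errors (SE) come from that fit after moderation. Levels are compared between arrays for 1 gene and not between single genes. A place above or below an array's median over all genes is given as a description only. The array medians over all rows lay between 4.04 and 4.17, and whether dim genes read above background was not tested. Ikzf1 read 9.89 to 10.1 on Cre+ activated and 10.0 to 10.2 on Cre- activated arrays, and 10.1 to 10.7 on Cre+ baseline and 10.5 on each Cre- baseline array. These ranges overlap, and a value over the whole gene need not lie in the deleted part, so it does not check the genotype labels. Cd4 and Cd3e, which define the labelled cell type, read 10.5 to 11.2 and 10.1 to 10.8 on the activated arrays, against 11.1 to 11.6 and 11.0 to 11.1 on the baseline arrays. Arrays of a group correlated at 0.992 to 0.993 at baseline, 0.976 to 0.990 in Cre+ activated and 0.972 to 0.994 in Cre- activated cells. Array 3 stood apart in cell cycle genes in both activated groups: 14 such genes averaged 8.55 there in Cre+ and 8.95 in Cre- cells, against 6.47 to 7.08 on the other 4 activated arrays.

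At baseline, transcripts of the B cell lineage were read in every preparation. Over the 35 genes the mean level was 7.47, 7.57 and 7.67 on the Cre+ baseline arrays, against 7.86, 7.64 and 7.71 on the Cre- baseline arrays. At baseline, all but 1 gene on 1 array lay above the array's own median over the genes tested. The exception was Tnfrsf13b on Cre+ baseline array 1, at 4.11. After activation the means were 6.10, 5.58 and 6.54 on the Cre+ arrays, and 5.20, 5.49 and 6.10 on the Cre- arrays. Every activated array lay below every baseline array, and between 3 and 9 of the 35 genes then lay under the array's median.

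**Figure D1:**
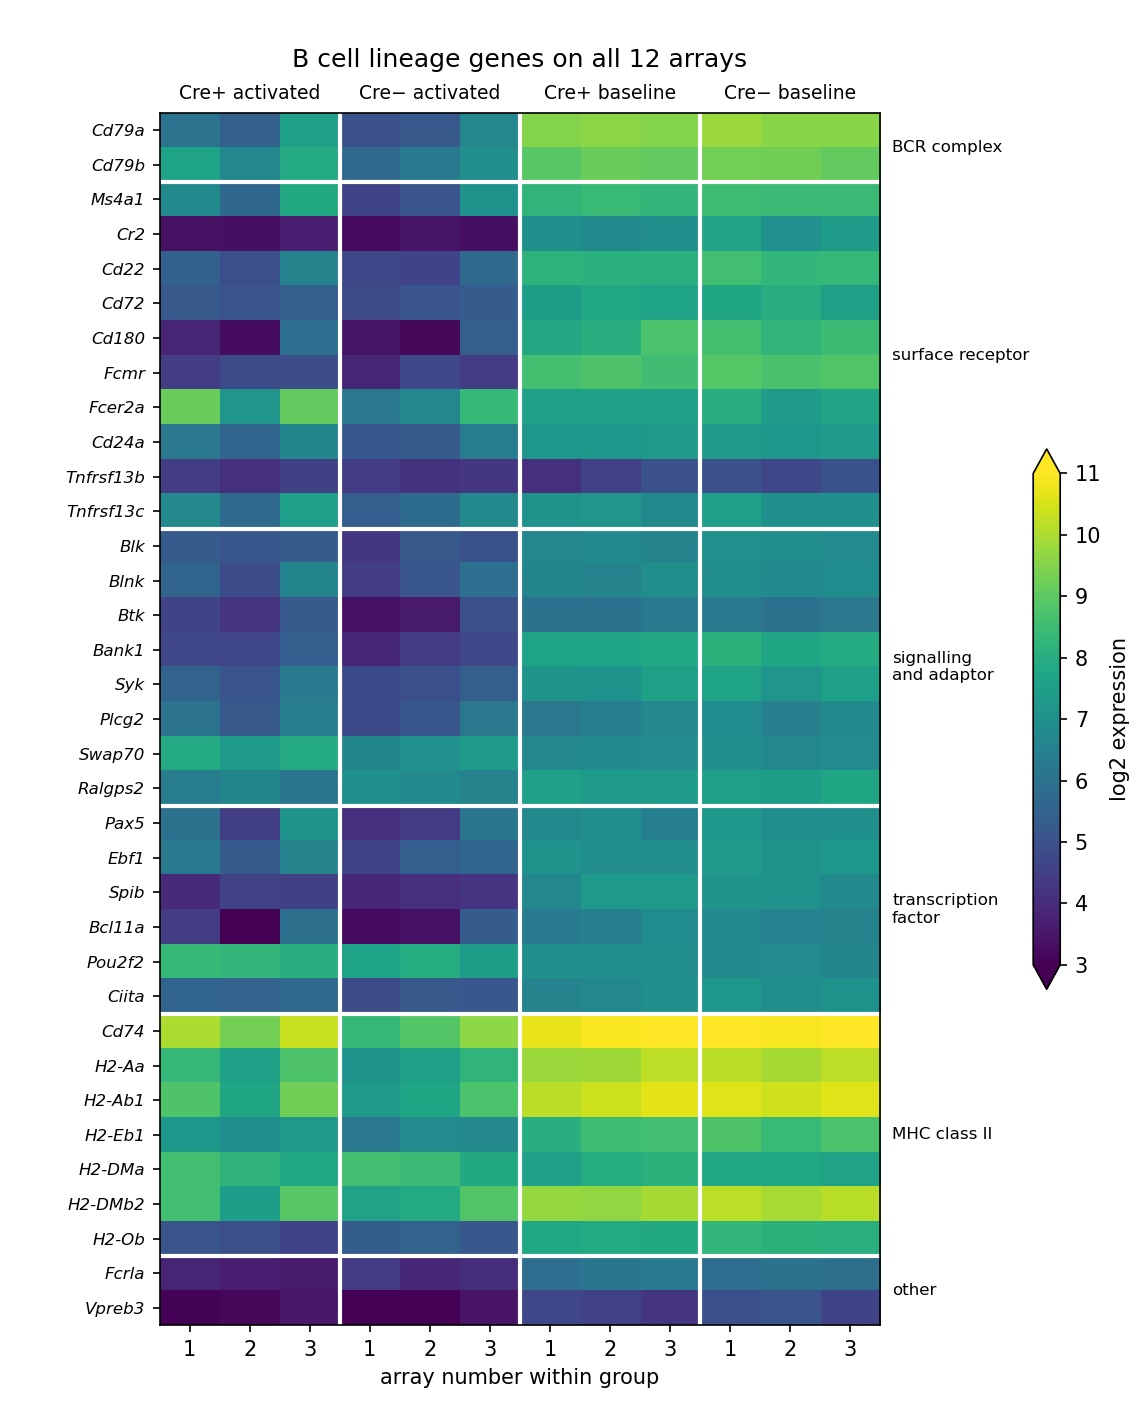
Log2 expression of the 35 measured B cell lineage genes (rows, grouped by role) on the 12 arrays (columns, by group and array number), with colour running from 3 to 11. Most rows are darker in the 6 activated columns, and Pou2f2 is brighter there.

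With activation, most of these genes fell in both genotypes. In Cre+ cells 25 of the 35 genes fell, 2 rose (Swap70 and Pou2f2) and 8 did not pass, where 20.7% of all genes tested passed in either direction, 10.6% lower and 10.1% higher. In Cre- cells 29 fell, 1 rose (Pou2f2) and 5 did not pass, where 18.5% of all genes passed, 9.1% lower and 9.39% higher. The median log2 difference over the 35 genes was -1.44 in Cre+ and -2.13 in Cre- cells, beside -0.02 and -0.0047 over all genes. The 3 activated arrays lay wholly below the 3 baseline arrays for 26 genes in Cre+ and 31 in Cre- cells, where 19.3% and 17.4% of all genes did so, and wholly above them for 2 genes in each genotype, where 17.3% and 17.7% of all genes did so. The calls were shared for 25 genes that fell in both genotypes and 1 that rose in both. Ms4a1, Blnk, Plcg2 and Pax5 passed in Cre- cells and missed the threshold in Cre+ cells. In bulk RNA, fewer cells of a type and less RNA per cell cannot be told apart.

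**Figure D2:**
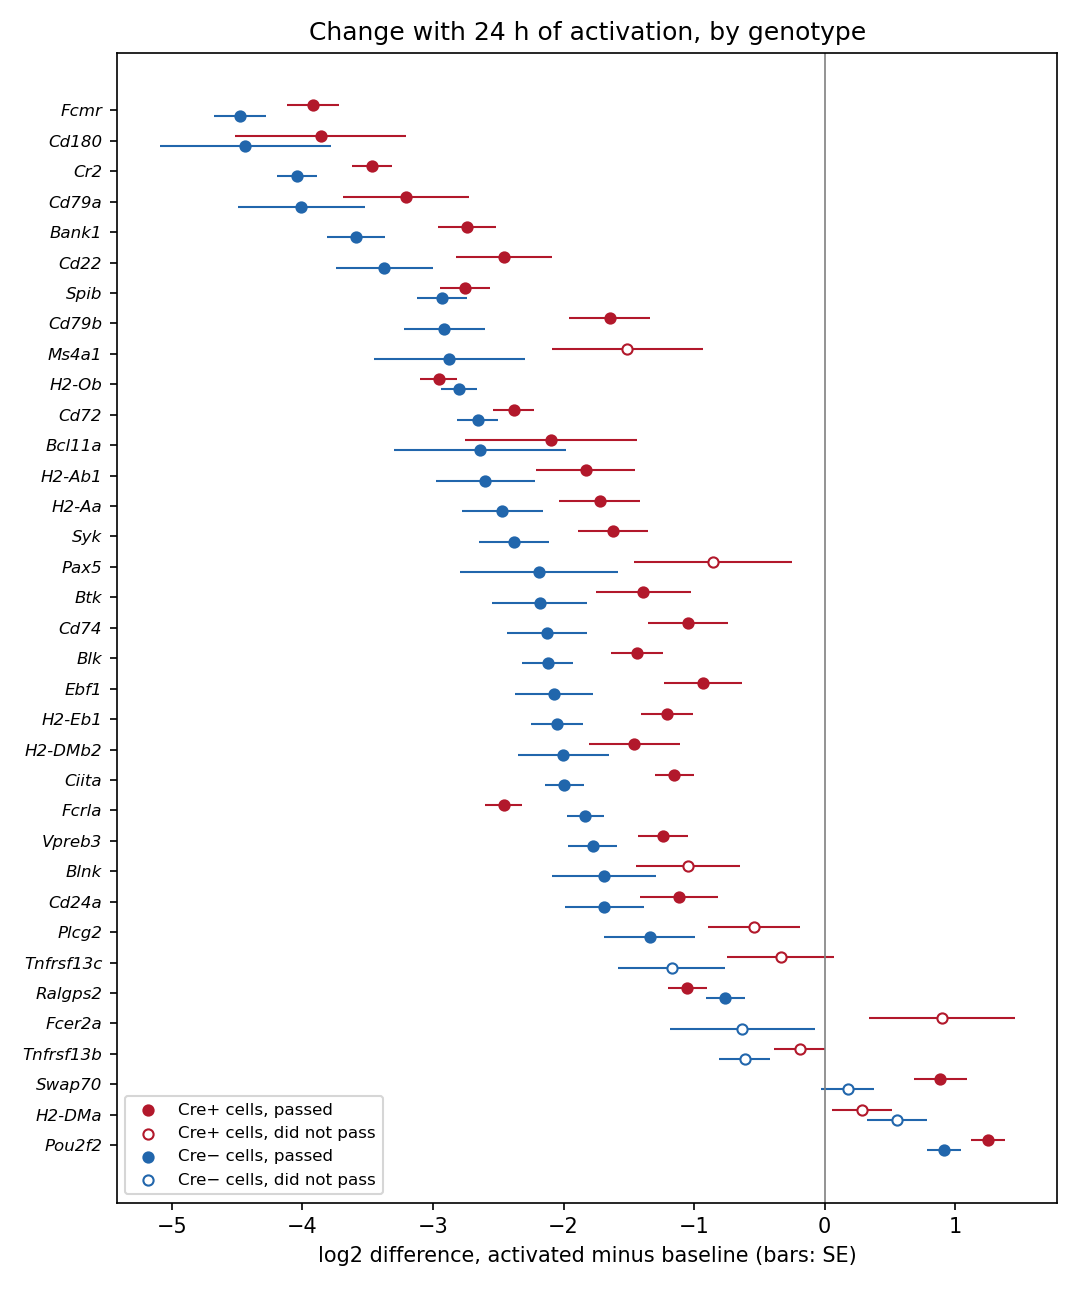
Log2 difference of activated minus baseline for each of the 35 genes in Cre+ (red) and Cre- (blue) cells, with bars of 1 SE; filled points passed and open points did not. Fcmr, Cd180, Cr2 and Cd79a lie furthest left, and Pou2f2 passed to the right of 0 in both genotypes.

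Both signalling chains of the B cell receptor fell. Cd79a read 6.06, 5.46 and 7.51 on the Cre+ activated arrays, against 9.53, 9.60 and 9.53 at Cre+ baseline (-3.21 ± 0.48 SE, adjusted p = 0.000828 by limma). In Cre- cells it read 4.99, 5.24 and 6.69 activated, against 9.81, 9.57 and 9.57 at baseline, 16.1-fold lower (-4.01 ± 0.48 SE, adjusted p = 0.000200 by limma). The groups did not overlap in either genotype, the baseline arrays stood within 0.28 of each other, and the 6 activated arrays spanned 2.51 with array 3 highest in each genotype. Cd79b read 7.64, 6.69 and 7.89 on Cre+ activated arrays, against 8.91, 9.17 and 9.07 at Cre+ baseline (-1.64 ± 0.31 SE). It read 5.73, 6.27 and 6.91 on Cre- activated arrays, against 9.28, 9.27 and 9.09 at Cre- baseline (-2.91 ± 0.31 SE). Each of the 12 readings of Cd79b kept the order of activated below baseline.

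Of the 10 surface receptors, 6 fell in Cre+ and 7 in Cre- cells. Fcmr, the Fc receptor for IgM, read 4.46, 4.83 and 4.89 on Cre+ activated arrays, against 8.63, 8.75 and 8.56 at Cre+ baseline, 15.1-fold lower (-3.92 ± 0.20 SE, adjusted p = 4.01e-07 by limma). In Cre- cells Fcmr read 3.83, 4.75 and 4.38 activated, against 8.88, 8.70 and 8.82 at baseline, 22.3-fold lower (-4.48 ± 0.20 SE). Cr2, complement receptor 2, ended below the array medians on all 6 activated arrays. It read 3.35, 3.34 and 3.66 in Cre+ activated cells, against 7.00, 6.80 and 6.96 at Cre+ baseline (-3.47 ± 0.15 SE). Its Cre- values were 3.24, 3.45 and 3.33 activated, against 7.67, 7.06 and 7.43 at baseline (-4.04 ± 0.15 SE), and array 3 stood close to the others for this gene. Cd180, a relative of the Toll-like receptors, showed a wide activated spread instead. It read 3.82, 3.27 and 5.92 on Cre+ activated arrays, against 7.83, 8.04 and 8.72 at Cre+ baseline (-3.86 ± 0.66 SE), and 3.46, 3.18 and 5.41 on Cre- activated arrays, against 8.64, 8.24 and 8.48 at Cre- baseline (-4.44 ± 0.66 SE).

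The inhibitory receptors moved in the same direction. Cd22, a sialic acid binding inhibitor of the B cell receptor, fell in both genotypes (-2.45 ± 0.37 SE in Cre+ and -3.37 ± 0.37 in Cre- cells). It read 5.48, 4.94 and 6.57 in Cre+ activated and 4.72, 4.62 and 5.78 in Cre- activated cells, where all 6 baseline arrays read 8.07 to 8.59. Cd72, another inhibitory coreceptor, fell too (-2.38 ± 0.15 SE in Cre+ and -2.66 ± 0.15 in Cre- cells), and its 6 activated arrays stood within 0.57 of each other. Cd24a, which mouse B cells carry and which is not specific to them, fell (-1.12 ± 0.30 SE in Cre+ and -1.69 ± 0.30 in Cre- cells).

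Ms4a1, which encodes CD20, read 6.81, 5.70 and 7.85 on Cre+ activated arrays, against 8.22, 8.38 and 8.29 at Cre+ baseline. The difference of -1.51 ± 0.58 (SE) did not pass (adjusted p = 0.0918 by limma), although the groups did not overlap. In Cre- cells Ms4a1 read 4.63, 5.10 and 7.09 activated, against 8.53, 8.46 and 8.45 at baseline (-2.88 ± 0.58 SE, adjusted p = 0.00519 by limma). Its 6 activated arrays spanned 3.21, the widest range of the 35 genes. Without both activated arrays numbered 3, the Ms4a1 difference in Cre+ cells was -2.04 and passed (adjusted p = 0.000278 by limma). It passed in 4 of 20 alternative fits. Over these fits it ran from -2.04 to -0.97, with limma adjusted p up to 0.268.

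The other 3 surface receptors passed in neither genotype. Fcer2a encodes CD23, the low-affinity IgE receptor of mature B cells. It read 9.17, 7.16 and 9.08 on Cre+ activated arrays, against 7.58, 7.56 and 7.57 at Cre+ baseline (0.90 ± 0.56 SE, adjusted p = 0.316 by limma). In Cre- cells Fcer2a read 6.21, 6.71 and 8.35 activated, against 8.06, 7.43 and 7.67 at baseline (-0.63 ± 0.56 SE). Arrays 1 and 3 of the Cre+ activated group and array 3 of the Cre- activated group lay above all baseline arrays, and the other 3 activated arrays lay below them. Tnfrsf13c, the BAFF receptor, gave -0.33 ± 0.41 (SE) in Cre+ and -1.17 ± 0.41 in Cre- cells, with readings of 6.75, 5.79 and 7.51 in Cre+ activated and 5.39, 5.81 and 6.83 in Cre- activated cells. Tnfrsf13b, which encodes TACI, read 4.11 to 5.02 on all 12 arrays.

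**Figure D3:**
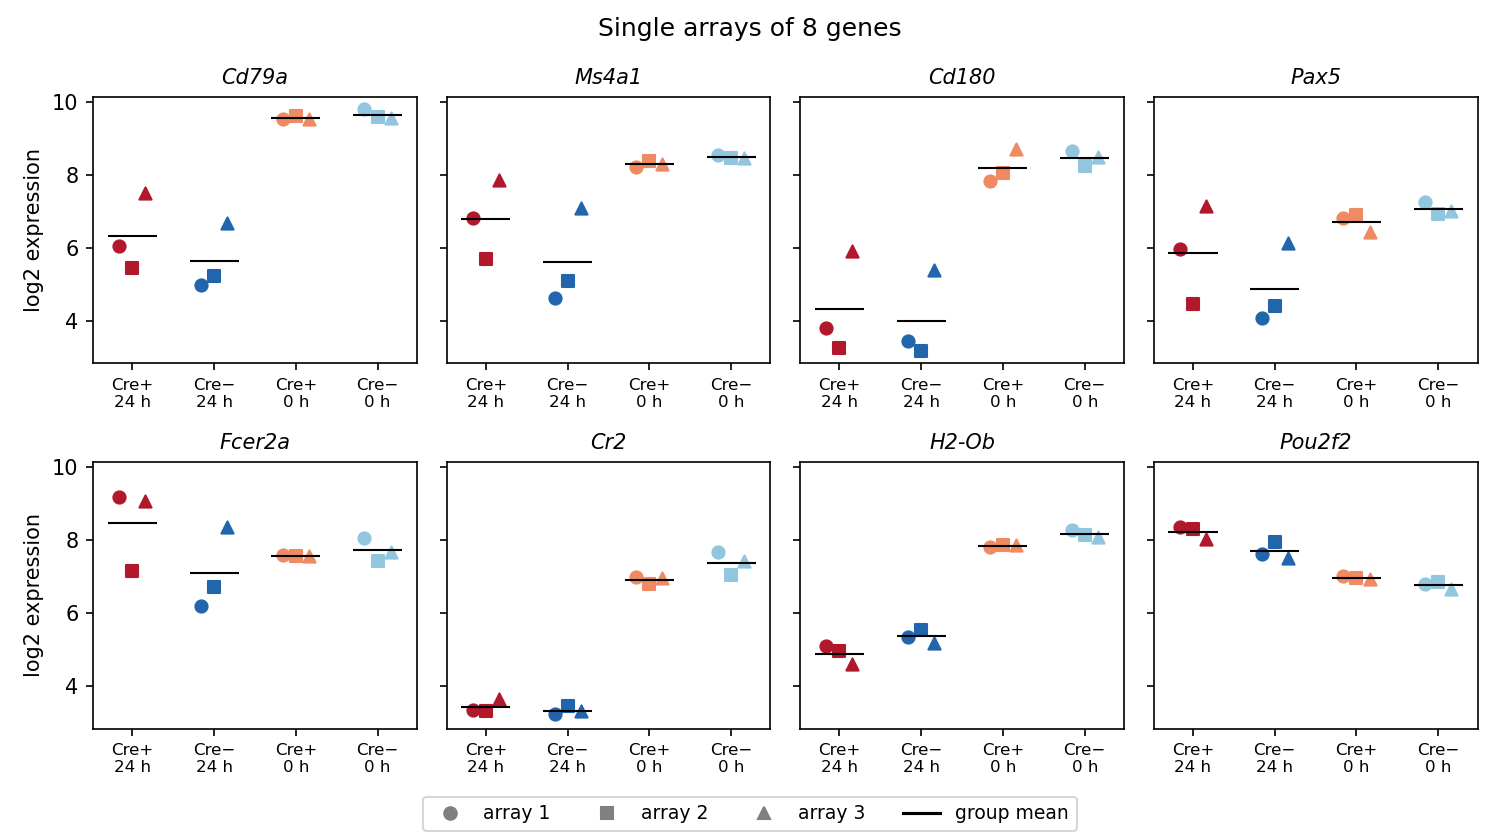
Log2 expression of 8 genes on each array (circles, squares and triangles for arrays 1, 2 and 3; black lines for group means) for Cre+ activated, Cre- activated, Cre+ baseline and Cre- baseline cells. Array 3 is high among the activated arrays for Cd79a, Ms4a1, Cd180 and Pax5, and not for H2-Ob or Pou2f2.

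Among the 8 signalling and adaptor genes, 5 fell and 1 rose in Cre+ cells, and 7 fell in Cre- cells. Bank1, a scaffold of B cell receptor signalling, read 4.71, 4.71 and 5.39 on Cre+ activated arrays, against 7.63, 7.64 and 7.77 at Cre+ baseline (-2.74 ± 0.22 SE). It read 3.88, 4.42 and 4.71 on Cre- activated arrays, against 8.13, 7.73 and 7.92 at Cre- baseline, 12.0-fold lower (-3.59 ± 0.22 SE). The tyrosine kinase Syk fell (-1.62 ± 0.27 SE in Cre+ and -2.38 ± 0.27 in Cre- cells). Blk, a Src family kinase, fell (-1.44 ± 0.20 SE in Cre+ and -2.12 ± 0.20 in Cre- cells), and Btk, a Tec family kinase, fell likewise (-1.39 ± 0.36 SE in Cre+ and -2.18 ± 0.36 in Cre- cells). For these 4 genes the activated arrays lay wholly below the baseline arrays in both genotypes. Ralgps2, a guanine nucleotide exchange factor for Ral, fell (-1.05 ± 0.15 SE in Cre+ and -0.76 ± 0.15 in Cre- cells).

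Blnk and Plcg2 passed in Cre- cells only, and the difference between genotypes is given below. Blnk read 5.58, 4.89 and 6.61 on Cre+ activated arrays, against 6.66, 6.59 and 6.95 at Cre+ baseline (-1.04 ± 0.40 SE, adjusted p = 0.0901 by limma), and gave -1.69 ± 0.40 in Cre- cells. Plcg2 gave -0.54 ± 0.35 (SE) in Cre+ and -1.34 ± 0.35 in Cre- cells. Swap70, which encodes an actin-binding signalling protein, went the other way in Cre+ cells. It read 7.89, 7.29 and 7.92 on Cre+ activated arrays, against 6.75, 6.82 and 6.87 at Cre+ baseline (0.89 ± 0.20 SE, adjusted p = 0.00918 by limma). In Cre- cells Swap70 read 6.66, 7.05 and 7.43 activated, against 7.02, 6.72 and 6.87 at baseline (0.18 ± 0.20 SE), and the groups overlapped.

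Of the 6 transcription factors and coactivators, 4 fell and 1 rose in Cre+ cells, and 5 fell and 1 rose in Cre- cells. Spib, an Ets family factor, read 3.98, 4.58 and 4.51 on Cre+ activated arrays, against 6.75, 7.29 and 7.30 at Cre+ baseline (-2.76 ± 0.19 SE). It read 3.93, 4.07 and 4.24 on Cre- activated arrays, against 7.13, 7.07 and 6.83 at Cre- baseline (-2.93 ± 0.19 SE), and the groups did not overlap in either genotype. Pax5 read 5.97, 4.48 and 7.15 on Cre+ activated arrays, against 6.81, 6.91 and 6.45 at Cre+ baseline, so its groups overlapped (-0.86 ± 0.60 SE, adjusted p = 0.388 by limma). In Cre- cells Pax5 read 4.07, 4.42 and 6.14 activated, against 7.25, 6.92 and 7.02 at baseline (-2.19 ± 0.60 SE, adjusted p = 0.0261 by limma). Without both activated arrays numbered 3, Pax5 gave -1.50 in Cre+ cells and passed (adjusted p = 0.00882 by limma). That was the only 1 of 20 alternative fits in which it passed. Over these fits its Cre+ difference ran from -1.50 to -0.16, with limma adjusted p up to 0.878. Ebf1 fell (-0.93 ± 0.30 SE in Cre+ and -2.07 ± 0.30 in Cre- cells), and Bcl11a, a zinc finger factor of early lymphoid development, fell in both (-2.09 ± 0.66 SE in Cre+ and -2.64 ± 0.66 in Cre- cells).

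Pou2f2, which encodes Oct-2 and is known also from stimulated T cells, rose in both genotypes. It read 8.36, 8.30 and 8.02 on Cre+ activated arrays, against 7.03, 6.97 and 6.94 at Cre+ baseline, 2.38-fold higher (1.25 ± 0.13 SE, adjusted p = 6.56e-05 by limma). It read 7.63, 7.95 and 7.50 on Cre- activated arrays, against 6.81, 6.85 and 6.67 at Cre- baseline (0.91 ± 0.13 SE). Vpreb3 and Blnk, whose windows above hold an octamer, gave negative values in both genotypes, and a part of the octamer in this was not tested. Vpreb3, a partner of immunoglobulin chains in the B lineage, fell (-1.24 ± 0.19 SE in Cre+ and -1.78 ± 0.19 in Cre- cells), and Fcrla, an intracellular Fc receptor-like protein, fell too (-2.46 ± 0.14 SE in Cre+ and -1.83 ± 0.14 in Cre- cells). Fcrla read 3.58 to 3.83 on Cre+ activated arrays, against 5.93 to 6.33 at Cre+ baseline.

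Of the 7 class II pathway genes, 6 fell in each genotype, and so did their coactivator Ciita. Ciita read 5.58, 5.54 and 5.75 on Cre+ activated arrays, against 6.56, 6.73 and 7.02 at Cre+ baseline (-1.15 ± 0.15 SE). It read 4.83, 5.25 and 5.19 on Cre- activated arrays, against 7.26, 6.92 and 7.07 at Cre- baseline (-1.99 ± 0.15 SE). Cd74, the invariant chain that guides class II molecules, read 10.03, 9.32 and 10.32 in Cre+ activated cells, against 10.72, 10.93 and 11.15 at Cre+ baseline (-1.04 ± 0.31 SE). The Cd74 readings were 8.34, 8.85 and 9.64 in Cre- activated cells, against 11.25, 10.93 and 11.02 at Cre- baseline (-2.13 ± 0.31 SE). The 3 genes of classical class II chains fell in both genotypes. H2-Aa gave -1.72 ± 0.31 (SE) in Cre+ and -2.47 ± 0.31 in Cre- cells, H2-Ab1 gave -1.83 ± 0.38 and -2.60 ± 0.38, and H2-Eb1 gave -1.21 ± 0.20 and -2.05 ± 0.20.

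H2-Ob, a chain of the peptide-loading inhibitor H2-O, read 5.10, 4.97 and 4.61 on Cre+ activated arrays, against 7.80, 7.88 and 7.87 at Cre+ baseline, 7.77-fold lower (-2.96 ± 0.14 SE). It read 5.37, 5.56 and 5.18 on Cre- activated arrays, against 8.28, 8.14 and 8.08 at Cre- baseline (-2.80 ± 0.14 SE), so array 3 was the lowest of each activated group. H2-DMb2, a chain of the peptide-loading catalyst H2-M, fell (-1.46 ± 0.35 SE in Cre+ and -2.00 ± 0.35 in Cre- cells). It has a near-identical neighbour, H2-DMb1, and how the array divides their signal was not tested. H2-DMa, the partner chain of H2-M, read 8.57, 8.19 and 7.75 on Cre+ activated arrays, against 7.57, 7.96 and 8.13 at Cre+ baseline (0.29 ± 0.23 SE), and gave 0.55 ± 0.23 (SE) in Cre- cells (adjusted p = 0.455 in Cre+ and 0.124 in Cre- cells by limma). It was the only class II gene here with positive values in both genotypes.

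Several calls near the threshold changed when 1 array was left out, and the lost calls kept their negative direction. In Cre+ cells Cd24a lost its call without any 1 of Cre+ baseline 1, 2 or 3 or Cre+ activated 1 or 2 (log2 difference then -1.14 to -0.84, limma adjusted p 0.0558 to 0.0677), and Cd74 without any 1 of the same 5 arrays (-1.15 to -0.76, adjusted p 0.0534 to 0.108). Btk lost it without Cre+ baseline 3, Cre+ activated 1 or Cre+ activated 2 (-1.35 to -1.14, adjusted p 0.0540 to 0.0683). Bcl11a lost it without any Cre+ or Cre- baseline array or Cre+ activated 1 or 2 (-2.22 to -1.34, adjusted p 0.0605 to 0.129), and Ebf1 without the same 8 arrays or Cre- activated 2 (-1.03 to -0.56, adjusted p 0.0579 to 0.125). Leaving out a Cre- array does not touch the Cre+ difference itself, which stayed at -2.09 for Bcl11a and -0.93 for Ebf1. In the other direction Ms4a1 and Blnk passed without Cre+ activated 3 (-2.04 and -1.50, adjusted p = 0.0361 and 0.0143) or without Cre- activated 3 (adjusted p = 0.0134 and 0.0416 by limma), and Fcer2a passed without Cre+ activated 2 (1.55, adjusted p = 0.0340 by limma). In Cre- cells Pax5 lost its call without any Cre- baseline array or Cre- activated 1 or 2 (-2.26 to -1.79, adjusted p 0.0609 to 0.0841), and Plcg2 without Cre- baseline 1 or 3 or Cre- activated 1 or 2 (-1.31 to -1.05, adjusted p 0.0626 to 0.0748). Bcl11a lost it without Cre- baseline 1 or Cre- activated 1 or 2 (-2.57 to -2.28, adjusted p 0.0516 to 0.0562). Tnfrsf13c passed without Cre- activated 3 (-1.58), Cre+ activated 2 or Cre+ activated 3, H2-DMa passed without Cre- activated 3 (0.77), and Tnfrsf13b passed without Cre+ baseline 1, Cre+ baseline 3 or Cre+ activated 2 (limma adjusted p 0.0162 to 0.0442 over the 3 genes).

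The activated arrays differed from each other in a way that many of these genes shared. Cre+ activated array 3 was the highest of the 6 activated arrays for 28 of the 35 genes, where 15.0% of all genes had it highest, and Cre- activated array 1 was the lowest for 24, where 12.6% of all genes had it lowest. Array 3 was the highest of its own group in both genotypes for 22 of the 35 genes (62.9%) and for 20.7% of all genes. The range over the 6 activated arrays exceeded 2 for 9 genes, namely Cd79a, Cd79b, Ms4a1, Cd180, Fcer2a, Tnfrsf13c, Blnk, Pax5 and Bcl11a. It stayed under 1 for 11 genes, among them Cr2, Cd72, Spib, Pou2f2, Ciita, H2-Ob, Fcrla and Vpreb3. Of these, Cr2, Vpreb3, Fcrla and Spib averaged 3.40, 3.19, 3.89 and 4.22 over the activated arrays, near or below the array medians. RMA compresses differences of dim genes, and its part in these narrow ranges was not tested. Cd72, Pou2f2, Ciita and H2-Ob averaged 5.17, 7.96, 5.35 and 5.13. The cell cycle genes were high on the same 2 arrays, where the proliferation marker Mki67 had levels of 9.60 (Cre+) and 9.65 (Cre-), against 6.85 to 7.42 on the other 4 activated arrays. Their part in the result was not tested.

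Genes outside the 35 gave the setting. Of 24 other B cell genes measured, 15 fell and 6 rose in Cre+ cells and 15 fell and 2 rose in Cre- cells, where 10.6% of all genes fell and 10.1% rose in Cre+ cells and 9.1% fell and 9.39% rose in Cre- cells. Those that fell included Siglecg, an inhibitory lectin (-2.55 in Cre+ and -2.82 in Cre- cells), and Fcrl1 (-1.98 and -2.43). Cd40, the receptor for CD40 ligand, rose in Cre+ cells (1.24 ± 0.26 SE) and gave 0.03 ± 0.26 in Cre- cells. The difference between these responses, 1.22 ± 0.36 (SE), did not pass (adjusted p = 0.744 by limma). Irf8 (1.78 in Cre+ and 1.71 in Cre- cells) and Bach2 (0.53 and 0.55) rose in both. Of 8 other class II pathway genes, 6 fell in each genotype, with H2-Eb2 at -1.90 in Cre+ and -2.60 in Cre- cells. Of the immunoglobulin constant genes Ighm fell in both genotypes (-0.92 and -1.22), and Igkc gave -1.34 in Cre+ cells, which did not pass, and -2.42 in Cre- cells, which did. The difference between the Igkc responses did not pass. Of 8 plasma cell and germinal centre B cell genes, 2 fell, 1 rose and 5 did not pass in each genotype. Their median log2 difference was -0.14 in Cre+ and -0.26 in Cre- cells. The lowest was Jchain, the joining chain of secreted IgM, which fell in both (-3.93 in Cre+ and -4.14 in Cre- cells). Lyz2 was not analysed here.

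Markers of other cells moved at the same time. Of 17 myeloid and dendritic cell genes, 11 fell in Cre+ and 13 in Cre- cells and none rose. Their mean level was 3.90 to 4.08 in Cre+ activated and 3.80 to 3.92 in Cre- activated cells, against 4.89 to 5.67 in Cre+ baseline and 5.09 to 5.45 in Cre- baseline cells. Itgax, which encodes CD11c, fell in both (-2.56 in Cre+ and -2.86 in Cre- cells). Of 7 plasmacytoid dendritic cell genes 5 fell in each genotype, with Siglech at -3.94 in Cre+ and -4.14 in Cre- cells, and their mean reached 8.35 on Cre+ baseline array 3, against 7.09 to 7.46 on the other baseline arrays. Of 12 T cell identity genes 7 fell in Cre+ and 3 in Cre- cells, and their mean was 9.24 to 9.65 on the activated and 9.77 to 9.94 on the baseline arrays. Cd8a, which marks the other main T cell lineage, passed in neither genotype (-0.07 in Cre+ and -0.10 in Cre- cells). Of 5 natural killer cell genes, 2 fell and 1 rose in Cre+ cells and 4 fell in Cre- cells, and none of 6 erythroid and platelet genes passed in limma in either genotype, with 1 in Cre+ and 0 in Cre- cells at an unadjusted p under 0.05. The lowest value over all rows was 0.542, so a reading above 0 does not show that a marker gene was expressed. The part of these cells in the readings of class II, Syk, Btk, Spib or Bcl11a was not tested.

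**Figure D4:**
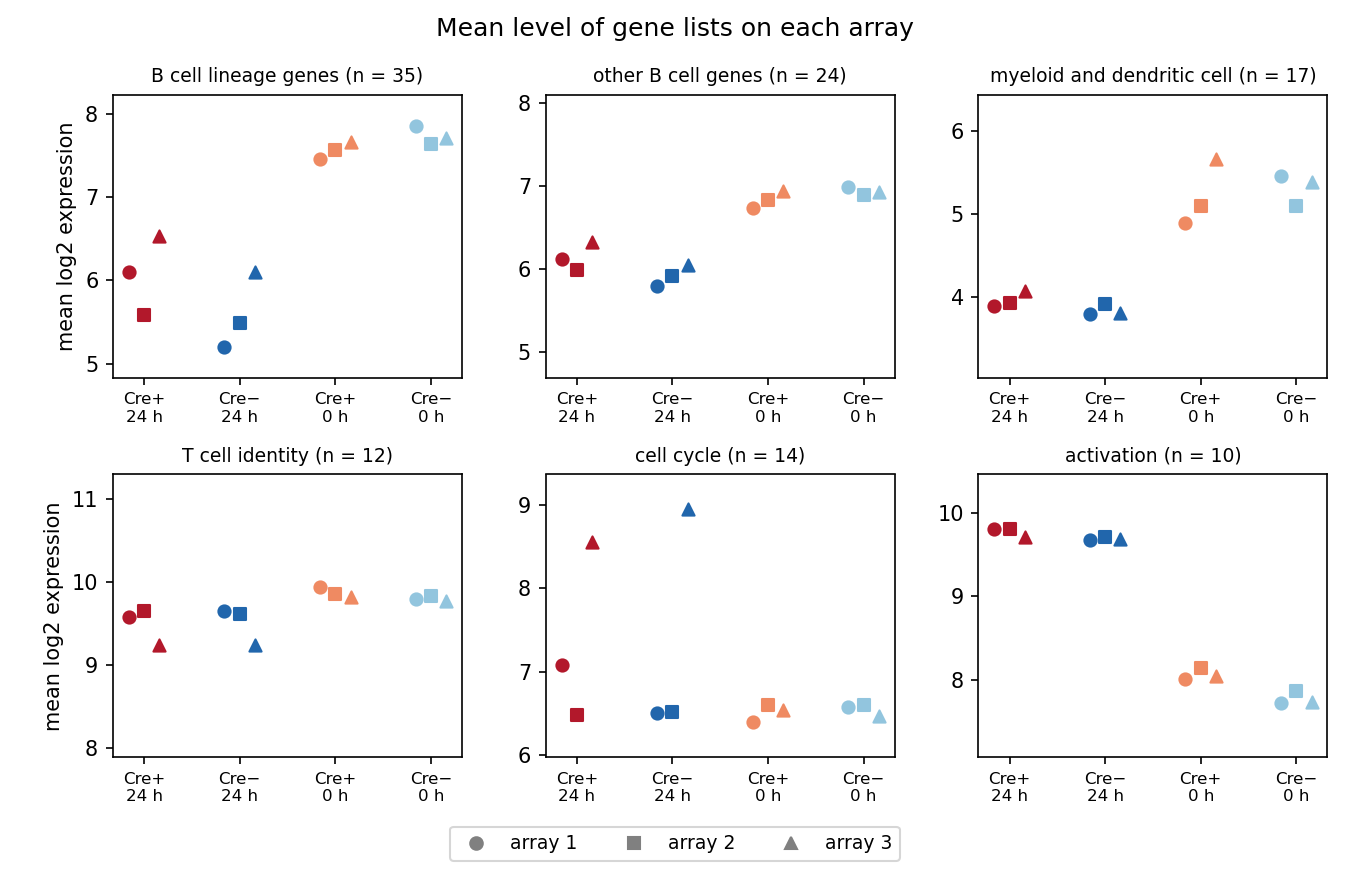
Mean log2 expression of 6 gene lists on each array (circles, squares and triangles for arrays 1, 2 and 3); every panel spans 3.4 log2 units. The B cell and the myeloid and dendritic lists lie lower on the activated arrays, the activation list lies higher, and the cell cycle list is high on array 3 of both activated groups.

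After activation, no gene of the 35 differed between Cre+ and Cre- cells past the threshold, where 0.729% of all genes passed (0.63% higher and 0.0992% lower). An unadjusted p under 0.05 was reached by 12 of the 35 genes and by 1741 of the 23185. The difference was above 0 for 31 genes and the median was 0.53, beside -0.01 over all genes. Among 24 other B cell genes 18 lay above 0, with a smaller median of 0.14. So did 6 of 8 plasma cell and germinal centre B cell genes (0.24) and 2 of 2 immunoglobulin constant genes (0.63). Some lists of other cells lay to the same side. The difference was above 0 for 5 of 5 natural killer cell genes (median 0.31) and 6 of 7 plasmacytoid dendritic cell genes (0.23). So it was for 14 of 17 myeloid and dendritic cell genes (0.06) and 7 of 8 other class II pathway genes (0.27). It was above 0 for only 5 of 12 T cell identity genes (-0.04) and 2 of 6 erythroid and platelet genes (-0.13). The part of other cells in the result was not tested. The median over the 35 genes was 0.27 without Cre+ activated 3 and 0.33 without Cre- activated 1. It was 0.84 without Cre+ activated 2 and 0.85 without Cre- activated 3, so its size rested on single arrays. The Cre+ arrays lay wholly above the Cre- arrays for Pou2f2, Ciita and H2-Eb1, and wholly below them for H2-Ob and Fcrla, where 5.25% and 5.51% of all genes did so. Pou2f2 differed by 0.54 ± 0.13 (SE, adjusted p = 0.130 by limma), Ciita by 0.53 ± 0.15 (adjusted p = 0.211) and H2-Ob by -0.48 ± 0.14 (adjusted p = 0.232). Fcer2a differed by 1.38 ± 0.56 (SE, adjusted p = 0.545 by limma) and Cd79b by 1.10 ± 0.31 (adjusted p = 0.206), and the groups overlapped for both.

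Some of these differences passed in fits with fewer arrays. Without Cre+ activated 2, Cd79b (1.46, adjusted p = 0.0302 by limma) and Ebf1 (1.21, adjusted p = 0.0449) were higher in Cre+ cells. Without Cre- activated 3, Btk (1.26, adjusted p = 0.0337 by limma), Cd74 (1.30, adjusted p = 0.0372) and Cd79b (1.41, adjusted p = 0.0423) were higher. Without both arrays numbered 3, Btk (0.97, adjusted p = 0.0258 by limma) and Ms4a1 (1.39, adjusted p = 0.0491) were higher. Of all 23185 genes, 218 passed without Cre+ activated 2, 283 without Cre- activated 3 and 229 without both arrays numbered 3. In the main fit 169 passed. Over all alternative fits the lowest differences were 0.82 for Cd79b, 0.56 for Ebf1, 0.47 for Btk, 0.65 for Cd74 and 0.65 for Ms4a1.

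At baseline, again no gene of the 35 differed between the genotypes past the threshold, where 0.552% of all genes passed (0.492% higher and 0.0604% lower). An unadjusted p under 0.05 was reached by 2 of the 35 genes and by 1606 of all genes. The difference was below 0 for 31 genes, with a median of -0.16, beside 0.0018 over all genes. The Cre+ arrays lay wholly below the Cre- arrays for 8 genes (Ms4a1, Cr2, Cd22, Blk, Pax5, Ebf1, H2-DMb2 and H2-Ob) and wholly above them for Pou2f2, where 7.42% and 8.82% of all genes did so. The 2 genes with an unadjusted p under 0.05 were Cr2 (-0.47 ± 0.15 SE, adjusted p = 0.396 by limma) and H2-Ob (-0.32 ± 0.14 SE, adjusted p = 0.681 by limma).

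The activation responses of the genotypes were set against each other in the same fit, a comparison that uses the same 12 arrays as those above. No gene of the 35 passed, where 0.00863% of all genes did, and 10 of the 35 and 1089 of all genes had an unadjusted p under 0.05. The Cre+ response was above the Cre- response for 31 genes, with a median difference of 0.71, beside -0.02 over all genes. Ciita had the smallest p (0.84 ± 0.21 SE, adjusted p = 0.523 by limma), and Fcer2a the highest value (1.53 ± 0.79 SE, adjusted p = 1.00). Of the 4 genes that passed in Cre- cells only, Blnk gave 0.64 ± 0.56, Plcg2 0.80 ± 0.50 and Pax5 1.33 ± 0.85 (SE), and neither these nor Ms4a1 passed. Swap70, which passed in Cre+ cells only, gave 0.71 ± 0.29 (SE, adjusted p = 1.00 by limma).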

How the data were processed

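The deposited values are log2 expression. Per the submitters' processing notes the authors used RMA from affy 1.36.1 under R 2.15.1. RMA corrects background and gives 1 value per gene on each array, and differences of dim genes come out compressed. The chip definition is not given in the sources used here. Of 25206 rows, 23185 paired with exactly 1 gene through the platform annotation and were tested, and 2021 with no listed gene were left out. Groups came from the labels. Group means of the 12 arrays were fitted in limma 3.58.1 under R 4.3.3 with no covariate, with 8 residual and 3.55 prior degrees of freedom. It was tested on simulated data for activation in Cre+ cells (23185 genes), where 77% of 2-fold and 93% of 4-fold changes were recovered with 8 false calls. The simulated noise was independent between genes and arrays. It held no shift shared by many genes, such as that of the activated arrays numbered 3, so these shares need not hold for the real arrays. Tables and plots used Python 3.11.15, pandas 2.3.3 and matplotlib 3.10.9. The number of arrays limits the precision. The listed genes were named at any value. Each other list added at most 6 genes per comparison, those that passed with the smallest adjusted p, and Cd40, Cd3e, Cd4, Cd8a, Lyz2, Itgax, Siglech and Mki67 at any value; another gene of this rule is not reported here. Ikzf1, the deleted gene, Irf8 and Bach2 were named outside this rule, the last 2 after their values were seen. The genes and lists were chosen with earlier results of these data known. The alternatives were a replicate block, a variance trend, array weights, a minimum mean of 5, median centring, quantile normalization, only the arrays compared, and arrays left out.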

Additional observations from a re-analysis of the deposited data

How the results depend on the processing

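The medians over the 35 genes kept their sign in every alternative run, and none of the results changed direction past the threshold. With array weights, 21 genes passed between the genotypes after activation (19 higher and 2 lower in Cre+ cells) and 3 in the difference of responses (Fcer2a 2.48, Cd79b 1.57 and Cd74 1.37). These weights ran from 0.235 on Cre- activated 3 to 3.79 on Cre+ activated 1, and 2416 of all genes then passed after activation, against 169. In the Cre+ activated group array 2 had the lowest weight (0.392), below array 3 (0.517). Without both activated arrays numbered 3, 2 genes passed there. Leaving out 1 array gave 0 to 3 genes between the activated genotypes, 0 at baseline and 0 in the difference of responses, and for activation 22 to 29 genes in Cre+ and 27 to 32 in Cre- cells. The replicate number as a block gave 28 genes for activation in Cre+ cells, 31 in Cre- cells and 0 in the other comparisons. The labels do not say whether the numbers pair the samples. Between the activated groups, deviations of same-numbered arrays correlated at -0.045, 0.571 and 0.728 for numbers 1, 2 and 3. Arrays numbered 2 and 3 thus shared deviations there, and the source of this was not tested. The correlations were -0.025 to 0.149 at baseline, -0.054 to 0.134 between Cre+ states and -0.095 to 0.020 between Cre- states. In Cre+ cells Ebf1 also lost its call under median centring (adjusted p = 0.0689 by limma) and with only the arrays compared (0.0623), where Bcl11a did too (0.0587). The difference of responses needs all groups, so it was not run on only the arrays compared.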
